A study of Mus musculus with 48 samples.

Results

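Collagens, laminins and the other basement membrane genes were examined in the substantia nigra (SN) of mice that had received α-synuclein (α-syn) into the striatum and then breathed air of normal or reduced O2 content. The members are the genes whose symbol names a collagen chain or a laminin chain, together with Nid1, Nid2, Hspg2, Agrn, Sparc and Fn1. They number 61 of the 19601 protein-coding genes of the batch-corrected tables, of which 44 encode collagen chains and 11 encode laminin chains. A total of 58 members passed the filter on low counts, beside 14839 of all genes.

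The animals were C57Bl/6J male mice. Each received a single right-sided intrastriatal injection at 121 days of age, either of α-syn pre-formed fibrils (PFF), which seed aggregation of the mouse's own protein, or of monomeric α-syn, which served as the control injection. The SN was taken 90 to 98 days later and sequenced as poly(A) RNA, 1 library a mouse. The 4 groups were monomer mice at 21% O2 (n = 11), PFF mice at 21% O2 (n = 12), monomer mice at 11% O2 (n = 9) and PFF mice at 11% O2 (n = 10). Every group had received an α-syn injection. The deposited design gives 6 weeks of 21% O2 before the switch to 11% O2. The study's legends, however, have that switch in PFF mice only, and monomer mice at 11% O2, a group present here, in other experiments. The legend for these libraries gives the same group sizes and 12 weeks after injection. By the methods, exposure in the 12-week prevention experiment began within hours of injection. The 42 analysed libraries held 12902996 to 17120921 counts each. Another 6 of the 48 sequenced mice had been left out by the authors as outliers, 3 of them monomer mice at 11% O2. The labels give 3 batches. Monomer mice at 21% O2 came from batches 1 and 2 and monomer mice at 11% O2 from batches 1 and 3, so that these groups shared batch 1 alone, with 4 mice each. Markers of dopaminergic neurons, which define the SN, summed to between 1108 and 5376 TPM (transcripts scaled to length and library total) in every mouse.

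The basement membrane is the thin sheet of matrix under endothelial cells and around pericytes and smooth muscle cells, and in the brain it also lies between vessels and astrocyte endfeet. Networks of collagen IV and of laminin trimers form its scaffold, nidogens and the proteoglycan perlecan link them, and agrin is the main heparan sulfate proteoglycan on the astrocyte side. Fibrillar collagens belong to the looser matrix made by fibroblasts of the meninges and of larger vessels. The enzymes that hydroxylate collagen use molecular oxygen, and hypoxia-inducible factors bind DNA at a short core motif.

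Promoter sequences are shown for Col4a1 and Col4a2, which encode the major chains of collagen IV, and for the members called between O2 levels that had a promoter in the table, Hspg2, which encodes perlecan, and Col7a1, the anchoring fibril collagen that moved the other way. They come from RefSeq on GRCm38.p6 and run from 250 bases before the transcript start to 50 bases after it, 5′ to 3′ on the gene's strand. Capitals mark GCGTG or ACGTG on either strand, the letters at the core of the hypoxia response element. Col4a1 on chromosome 8 lies at chr8:11312777-11313076 on the minus strand, Col4a2 at chr8:11312555-11312854 on the plus strand, Hspg2 at chr4:137468553-137468852 on the plus strand and Col7a1 at chr9:108953336-108953635 on the plus strand.
Col4a1: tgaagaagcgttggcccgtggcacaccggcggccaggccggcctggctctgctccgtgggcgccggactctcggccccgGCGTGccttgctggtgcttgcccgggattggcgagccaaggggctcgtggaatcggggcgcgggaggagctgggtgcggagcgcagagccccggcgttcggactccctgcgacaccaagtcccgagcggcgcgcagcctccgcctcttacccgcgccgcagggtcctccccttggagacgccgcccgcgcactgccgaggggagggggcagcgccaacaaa
Col4a2: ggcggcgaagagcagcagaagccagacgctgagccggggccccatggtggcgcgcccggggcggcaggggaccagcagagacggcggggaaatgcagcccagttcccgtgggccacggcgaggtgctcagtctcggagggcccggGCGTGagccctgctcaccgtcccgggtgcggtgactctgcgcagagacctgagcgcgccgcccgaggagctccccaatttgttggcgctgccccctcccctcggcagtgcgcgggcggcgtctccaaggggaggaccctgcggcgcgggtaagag
Hspg2: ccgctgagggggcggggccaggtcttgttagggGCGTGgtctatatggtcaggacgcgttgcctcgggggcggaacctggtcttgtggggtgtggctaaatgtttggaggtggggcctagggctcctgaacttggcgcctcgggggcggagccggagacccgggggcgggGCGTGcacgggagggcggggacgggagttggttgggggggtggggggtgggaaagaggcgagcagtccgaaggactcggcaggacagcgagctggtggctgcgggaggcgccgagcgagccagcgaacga
Col7a1: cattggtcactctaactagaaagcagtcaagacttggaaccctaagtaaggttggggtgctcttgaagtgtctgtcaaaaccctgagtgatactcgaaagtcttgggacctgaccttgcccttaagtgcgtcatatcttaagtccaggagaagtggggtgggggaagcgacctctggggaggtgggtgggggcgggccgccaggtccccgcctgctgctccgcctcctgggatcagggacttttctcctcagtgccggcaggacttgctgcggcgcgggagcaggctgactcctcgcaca
Col4a1 and Col4a2 are transcribed away from each other and their windows share 78 bases, so that these bases belong to both. The windows of Col4a1 and Col4a2 each held GCGTG 1 time, that of Hspg2 held it 2 times, and that of Col7a1 held neither ACGTG nor GCGTG. Promoters were found for 44 of the 61 members, in 49 rows. Those without included Col1a1, Col2a1, Col4a3, Col5a2, Col9a3, Col12a1, Col14a1, Col22a1, Col26a1, Fn1, Lama1, Lama3, Lama4, Lamc1, Lamc3 and Nid2. ACGTG, read on both strands, was in 5 of the 49 member promoters (10.2%) and in 19.6% of all 32851 promoters. GCGTG was in 14 (28.6%) and in 32.4% of all promoters, the CCAAT box in 15 (30.6%) and in 37.4% of all. The GC box GGGCGG was in 30 (61.2%) and in 35.7% of all promoters. The 5 members with ACGTG were Col11a2, Col1a2, Col4a4, Col5a1 and Col6a6. A match of letters is a description of the window and not a binding site.

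Levels differed far more between members than between groups. TPM corrects for gene length, so it allows members to be ranked. Sparc, a collagen-binding matricellular protein made in quantity by astrocytes and endothelial cells, was at 1531 ± 128 TPM (SD) in monomer mice at 21% O2, 1596 ± 127 in PFF mice at 21% O2, 1677 ± 143 in monomer mice at 11% O2 and 1607 ± 122 in PFF mice at 11% O2. The 4 means lay within 2 SD of each other, and no comparison of Sparc passed its test. Agrn followed with a mean of 101 TPM over the 42 mice, then Col16a1 with 61.1 TPM, Col11a2 with 51.6 TPM and Col25a1 with 36.1 TPM. Col25a1 is a transmembrane collagen of neurons, Col16a1 is a collagen that attaches to fibril surfaces, and Col11a2 is a minor fibrillar chain. The major interstitial chains were low, with mean TPM of 7.17 for Col1a1, 5.24 for Col1a2 and 2.09 for Col3a1. Col17a1, Col6a5 and Col10a1 did not pass the count filter and had mean TPM of 0.255, 0.149 and 0.0644.

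**Figure D1:**
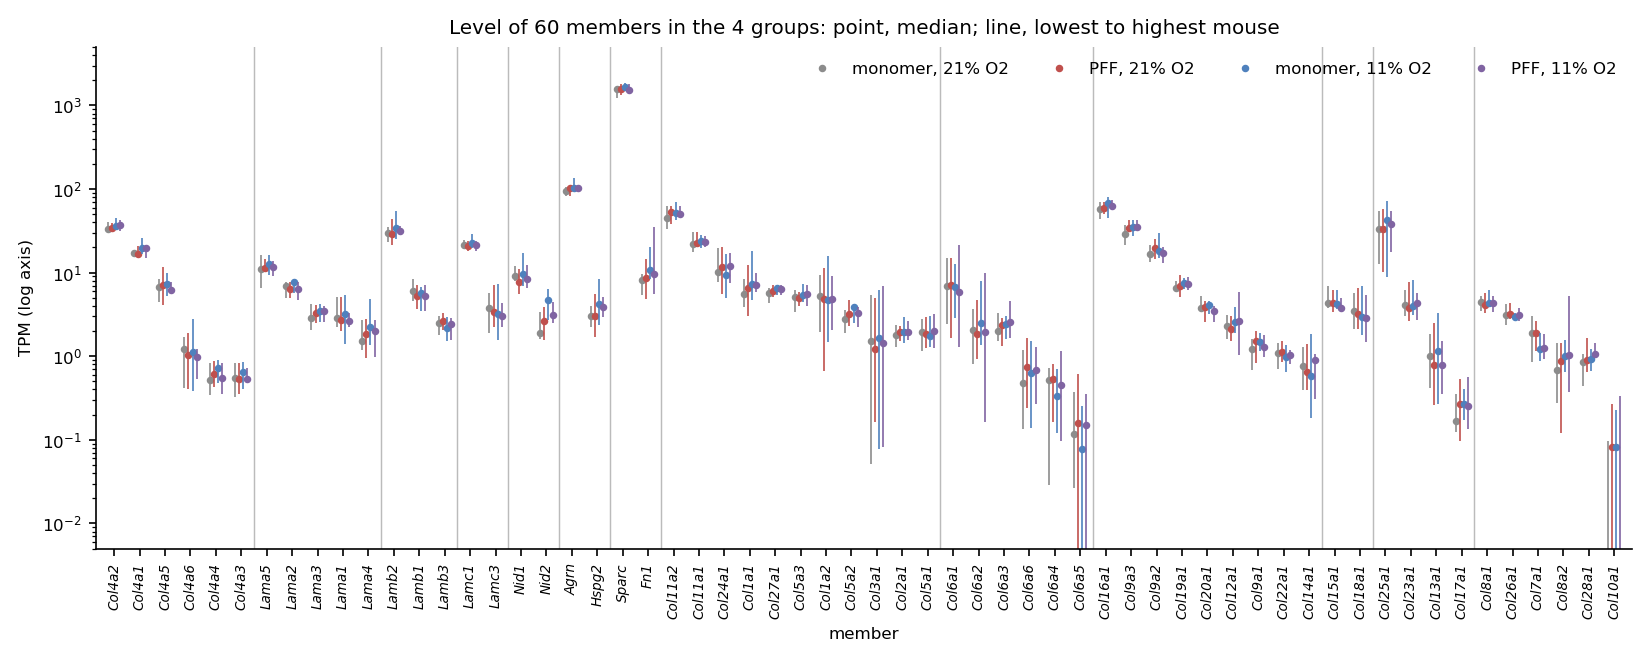
TPM of 60 of the 61 members (log axis) in the 4 groups, ordered by class and level. Points are group medians, lines run from the lowest to the highest mouse, and values of 0 fall under the axis. Sparc, with a mean of 1599 TPM, stands far above Agrn at 101 TPM, and the group medians of most members lie close together.

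Collagen IV is the network-forming collagen of every basement membrane, with Col4a1 and Col4a2 as the chains found in vessels. Col4a1 (chr8:11198423-11312826, minus strand) ran from 16.2 to 18.8 TPM with a median of 17.3 in monomer mice at 21% O2, and from 16.6 to 26.0 TPM with a median of 19.7 in monomer mice at 11% O2. In PFF mice it ran from 15.0 to 20.7 TPM with a median of 16.6 at 21% O2, and from 15.1 to 21.7 TPM with a median of 19.5 at 11% O2. Of the monomer mice at 11% O2, 8 of 9 were above every monomer mouse at 21% O2. Its log2 fold change with 11% O2 was 0.23 (SE 0.0578, adjusted p = 0.0066 by the edgeR quasi-likelihood test) in monomer mice, below the fold change that a call required, and 0.18 (SE 0.0554, adjusted p = 0.15) in PFF mice. Col4a2 had medians of 33.7, 34.5, 36.5 and 36.7 TPM in monomer and PFF mice at 21% O2 and monomer and PFF mice at 11% O2, and its log2 fold change with 11% O2 in monomer mice was 0.13 (95% interval 0.02 to 0.23, adjusted p = 0.12).

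A gene was called where its adjusted p was under 0.05 over all genes tested and its log2 fold change was above 0.25 in size. In monomer mice, 7 of the 58 members were called between 11% and 21% O2, where 7.23% of all 14839 genes were. They were 6 higher, where 4.68% of all genes were called higher, and 1 lower, where 2.55% were called lower. By the adjusted p alone 9 members passed, where 13.2% of all genes did, the added ones being Col4a1 and Agrn. The median log2 fold change was 0.18 over the members and −0.01 over all genes, and 43 of the 58 members were positive beside 47.9% of all genes. Without adjustment, 25 members (43.1%) and 27.7% of all genes had p under 0.05. Members are measured in the same mice and can vary together, so these counts are not counts of independent results.

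Nid2 encodes nidogen-2, which bridges the laminin and collagen IV networks, and had the largest rise among the members called. It ran from 1.61 to 3.39 TPM with a median of 1.92 in monomer mice at 21% O2, and from 2.69 to 6.42 TPM with a median of 4.70 in monomer mice at 11% O2. Of the latter, 8 of 9 were above every monomer mouse at 21% O2. The log2 fold change was 0.93 (adjusted p = 5.5e-05, SE 0.155). PFF mice lay between, from 1.55 to 3.88 TPM (median 2.63) at 21% O2 and from 2.48 to 4.44 TPM (median 3.15) at 11% O2, and those groups overlapped with a log2 fold change of 0.43 (adjusted p = 0.22, SE 0.149). Nid2 overlaps Rtraf on the other strand and the counting named no strand option, so reads in that overlap cannot be told apart. Nid1, the other nidogen, had medians of 9.02 TPM at 21% O2 and 9.72 TPM at 11% O2 in monomer mice, with a log2 fold change of 0.23 (95% interval −0.02 to 0.47, adjusted p = 0.24).

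Hspg2 encodes perlecan, the large heparan sulfate proteoglycan of vessel basement membranes, whose promoter is printed above. It ran from 2.26 to 3.97 TPM with a median of 2.99 in monomer mice at 21% O2, and from 2.37 to 8.33 TPM with a median of 4.21 in monomer mice at 11% O2. The groups overlapped, with 6 of 9 mice at 11% O2 above every mouse at 21% O2, and the log2 fold change was 0.59 (adjusted p = 0.021, SE 0.177). In PFF mice Hspg2 ran from 1.69 to 5.54 TPM (median 3.06) at 21% O2 and from 2.93 to 5.17 TPM (median 3.83) at 11% O2, a log2 fold change of 0.26 (adjusted p = 0.62, SE 0.17). Agrn encodes agrin and ran from 83.4 to 106 TPM (median 95.8) in monomer mice at 21% O2 and from 94.7 to 136 TPM (median 104) at 11% O2. Its log2 fold change of 0.17 (adjusted p = 0.021, SE 0.0498) was too small for a call. Col18a1 encodes collagen XVIII, a proteoglycan of vessel basement membranes whose end fragment is endostatin. It ran from 2.11 to 5.65 TPM (median 3.45) in monomer mice at 21% O2 and from 1.78 to 6.94 TPM (median 2.91) at 11% O2, groups that overlapped throughout. Its log2 fold change was −0.04 (95% interval −0.47 to 0.39, adjusted p = 0.93), and its sign changed in 3 of 12 other fits.

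Laminins are trimers of an α, a β and a γ chain. Lama4, the α4 chain of endothelial basement membranes, ran from 1.19 to 2.68 TPM with a median of 1.53 in monomer mice at 21% O2, and from 1.34 to 4.88 TPM with a median of 2.23 in monomer mice at 11% O2. The groups overlapped broadly, with 2 of 9 mice at 11% O2 above every mouse at 21% O2, and the log2 fold change was 0.56 (adjusted p = 0.025, SE 0.174). In PFF mice Lama4 had medians of 1.82 TPM at 21% O2 and 2.02 TPM at 11% O2 and a log2 fold change of 0.12 (95% interval −0.21 to 0.45, adjusted p = 0.84). All 5 α chain genes had a positive log2 fold change in monomer mice, with a median of 0.26, and Lama4 was the one called. Lama5, the endothelial α5 chain, was at 0.27 (adjusted p = 0.10) and Lama2, the α2 chain of the astrocyte and mural side, at 0.17 (adjusted p = 0.17). Lamb2, with 0.27 (adjusted p = 0.065), Lamb1, with −0.13 (adjusted p = 0.49), and Lamc1, with 0.12 (adjusted p = 0.16), were not called.

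Fn1 encodes fibronectin, which cells deposit around vessels as they remodel. It ran from 5.43 to 9.59 TPM with a median of 8.13 in monomer mice at 21% O2, and from 8.45 to 19.99 TPM with a median of 10.6 in monomer mice at 11% O2. Of the mice at 11% O2, 6 of 9 were above every mouse at 21% O2, and the log2 fold change was 0.67 (adjusted p = 0.045, SE 0.23). In PFF mice Fn1 ran from 4.83 to 14.7 TPM (median 8.70) at 21% O2 and from 5.58 to 35.4 TPM (median 9.65) at 11% O2. The log2 fold change there was 0.51 (adjusted p = 0.40), and 0.15 (adjusted p = 0.79) without the mouse at 35.4 TPM.

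Col7a1 was the only member called lower. It encodes collagen VII, the chain of anchoring fibrils in skin, and was present at low level. It ran from 0.864 to 3.02 TPM with a median of 1.90 in monomer mice at 21% O2, and from 0.888 to 1.87 TPM with a median of 1.21 in monomer mice at 11% O2. The range at 11% O2 lay wholly inside the range at 21% O2 and toward its lower end, and the log2 fold change was −0.62 (adjusted p = 0.0067, SE 0.159). In PFF mice it ran from 1.15 to 2.66 TPM (median 1.91) at 21% O2 and from 0.931 to 1.85 TPM (median 1.24) at 11% O2, with a log2 fold change of −0.55 (adjusted p = 0.068, SE 0.152).

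Among the fibrillar collagens, Col5a2, which encodes a chain of the collagen V that starts fibrils, was called. It ran from 1.88 to 3.53 TPM with a median of 2.79 in monomer mice at 21% O2, and from 2.48 to 4.15 TPM with a median of 3.86 in monomer mice at 11% O2. The groups overlapped, with 6 of 9 mice at 11% O2 above every mouse at 21% O2, and the log2 fold change was 0.35 (adjusted p = 0.041, SE 0.119). Col1a1, the α1 chain of collagen I, had the larger estimate of 0.51 with the wider 95% interval of 0.11 to 0.91 (adjusted p = 0.089). Col1a2, at 0.21 (95% interval −0.47 to 0.89), and Col3a1, at 0.18 (95% interval −1.05 to 1.41), varied so much between mice that changes of that size were not detectable. In PFF mice no fibrillar collagen gene was called, and Col5a2 was at 0.01 (95% interval −0.21 to 0.23).

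Col9a3 encodes a chain of collagen IX, which lies on fibril surfaces, and was the only member called in 2 comparisons. It ran from 21.7 to 37.3 TPM with a median of 29.4 in monomer mice at 21% O2. It was higher in each of the other groups, from 30.3 to 42.1 TPM (median 34.2) in PFF mice at 21% O2, 27.8 to 42.1 TPM (median 35.2) in monomer mice at 11% O2 and 31.7 to 42.5 TPM (median 35.1) in PFF mice at 11% O2. The 4 groups overlapped, and the medians of the other 3 lay close together. The log2 fold change was 0.25 (adjusted p = 0.013, SE 0.0709) with 11% O2 in monomer mice and 0.26 (SE 0.0662, adjusted p = 0.012) with PFF at 21% O2, and both comparisons share the monomer mice at 21% O2. Both fold changes lie at the edge of the 0.25 required, and the first became 0.22 and the second 0.25, just under it, without 1 mouse each. Col9a3 overlaps Tcfl5 on the other strand.

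**Figure D2:**
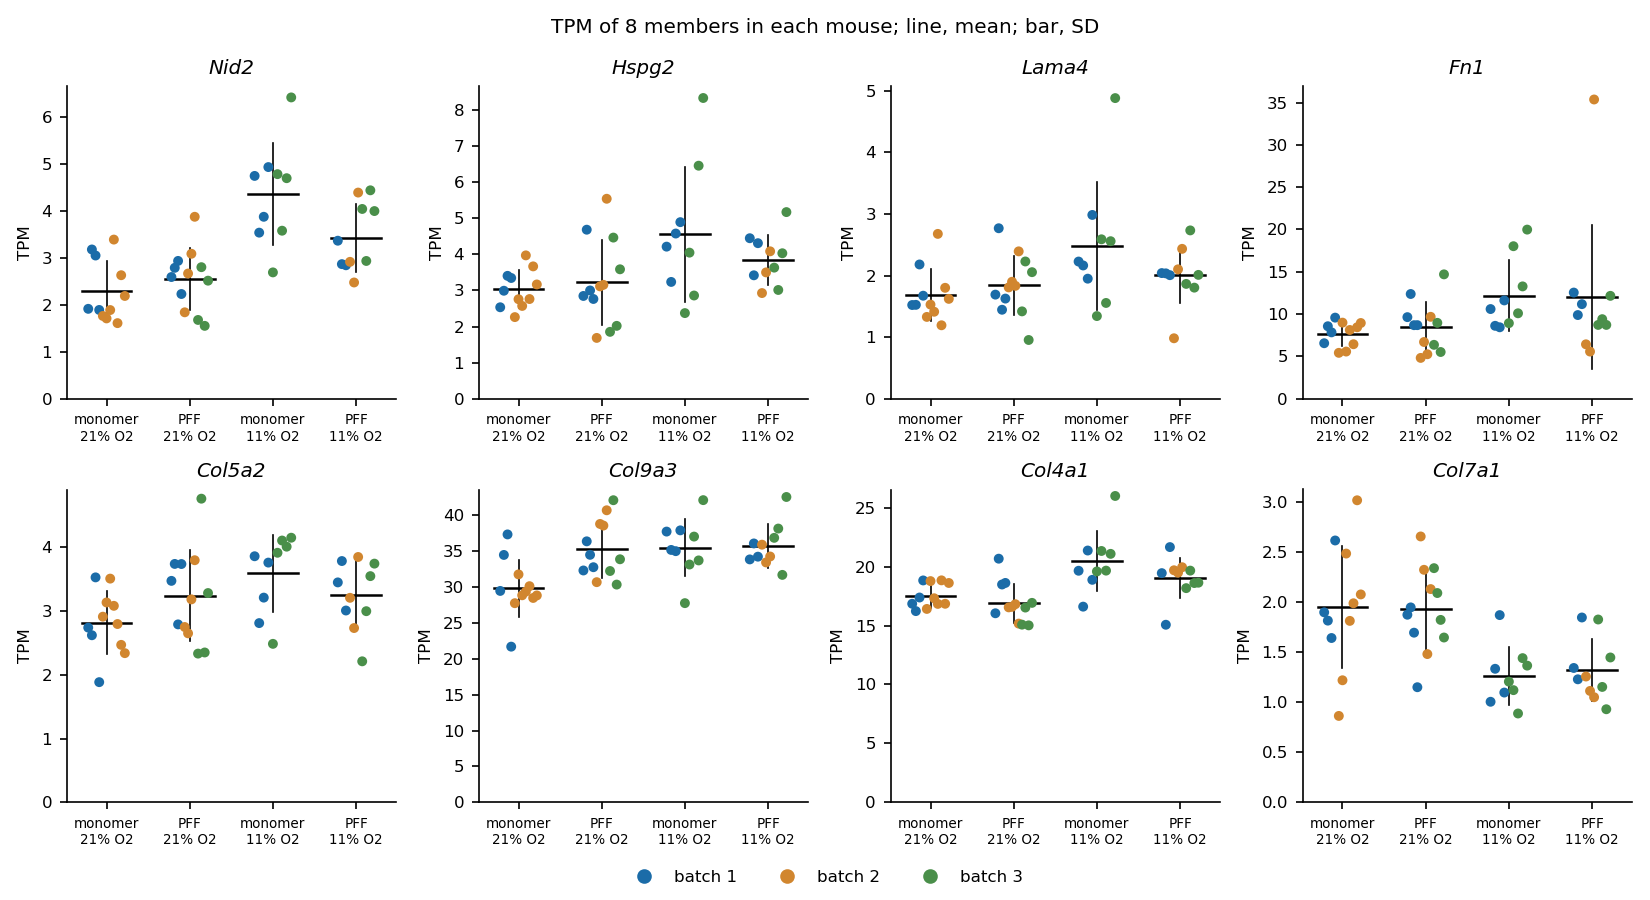
TPM of 8 members in each of the 42 mice (1 point a mouse, coloured by the batch in the labels) for the 4 groups, with the mean as a line and the SD as a bar. Nid2 and Col4a1 in monomer mice at 11% O2 lie above all monomer mice at 21% O2 in 8 of 9 mice, while the ranges of Lama4 and Col7a1 overlap.

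The calls in monomer mice depended on the fit. Nid2 was called in 11 of 12 other fits, with a log2 fold change from 0.70 to 1.22, and Col7a1 in 10 of 12. Fn1 and Lama4 were called in 4 of 12, Col5a2 in 3, Hspg2 in 6 and Col9a3 in 7. With uncorrected counts and a batch term in the model, 3 members were called over the 42 mice (Nid2, Col7a1 and Col4a1) and 5 over all 48 (Nid2, Hspg2, Col9a3, Col4a1 and Col11a2). Within batch 1, the only batch with both groups, 0 members were called, with Nid2 at 0.75 (adjusted p = 0.069), Hspg2 at 0.42, Lama4 at 0.39, Col5a2 at 0.33, Col9a3 at 0.25, Fn1 at 0.11 and Col7a1 at −0.56. In that batch 297 of 14768 genes were called. Without monomer mouse 11 at 11% O2, which had the highest Nid2, Hspg2, Lama4 and Col4a1 of its group, 3 members were called, among them Nid2 at 0.85 and Col7a1 at −0.64, while Hspg2 was at 0.43 (adjusted p = 0.092), Lama4 at 0.38 (adjusted p = 0.12) and Fn1 at 0.55 (adjusted p = 0.12).

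**Figure D3:**
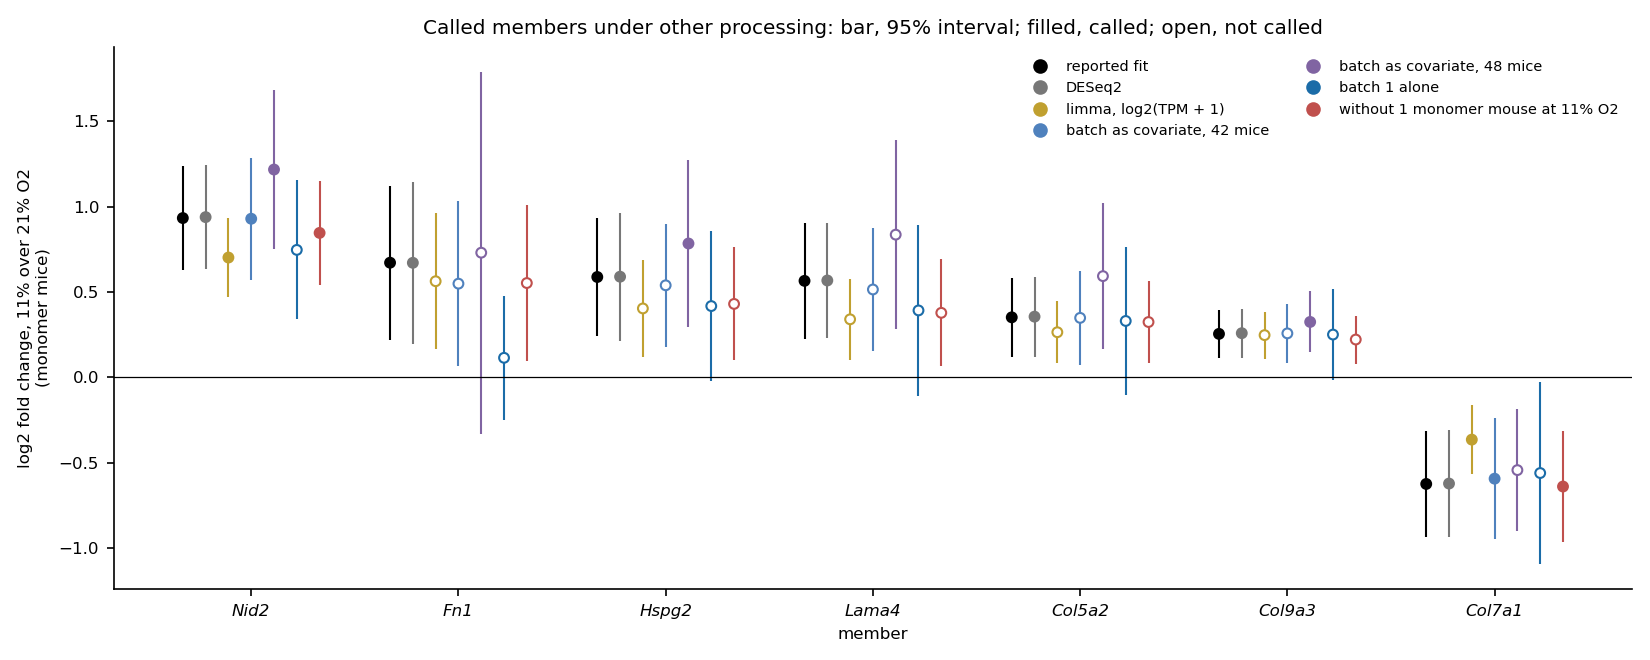
log2 fold change between 11% and 21% O2 in monomer mice for the 7 members called, under 7 fits. Points are estimates, bars 95% intervals, filled points passed the call rule and open points did not. All 7 members kept their sign in each fit shown, and in batch 1 alone every point is open.

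Between 11% and 21% O2 in PFF mice, edgeR called 0 of the 58 members, where 0.58% of all genes were called, and 6 members (10.3%) had an unadjusted p under 0.05 beside 10.7% of all genes. DESeq2 called 1, Col7a1 at −0.55, and limma on log2(TPM + 1) called 0. The median log2 fold change was 0.01 over the members and −0.01 over all genes. Of the 7 members called in monomer mice, Col7a1, Fn1 and Nid2 had the largest values here, as given above, and Col5a2 and Col9a3 had 0.01 and 0.02.

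Between PFF and monomer mice at 21% O2, 1 of the 58 members was called, Col9a3, where 3.7% of all genes were. By batch, its log2 fold change was 0.14 (adjusted p = 0.63) in batch 1 and 0.34 (adjusted p = 0.0057) in batch 2. Col9a2, another chain of the same collagen, was at 0.24 (adjusted p = 0.097) over all mice. The median was 0.07 over the members and 0.00 over all genes, and 5 members (8.62%) beside 22.4% of all genes had an unadjusted p under 0.05. Nid2 was at 0.17 (95% interval −0.13 to 0.47), Col4a1 at −0.04 (95% interval −0.15 to 0.07) and Fn1 at 0.16 (95% interval −0.27 to 0.58).

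Between PFF and monomer mice at 11% O2, 0 members were called by edgeR, by DESeq2 or by limma, and 0% of all genes were called by edgeR. At an unadjusted p under 0.05 there were 4 members (6.90%), beside 3.92% of all genes. These were Lama2 at −0.20, Nid1 at −0.29, Nid2 at −0.33 and Col9a2 at −0.22, and the smallest adjusted p was 1.00. Of the 58 members 18 were positive, with a median of −0.06, beside 49.6% of all genes. All 6 collagen IV genes and all 5 laminin α genes were negative in this comparison, with medians of −0.16 and −0.20, and none of them was called. These genes are measured in the same mice and can vary together. The signs were not counted by batch or without monomer mouse 11 at 11% O2.

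The test of whether the O2 response differed between PFF and monomer mice called 0 members by edgeR, where 2.14% of all genes were called. DESeq2 called 1, Col9a2, and limma 0, and 9 members (15.5%) beside 15.4% of all genes had an unadjusted p under 0.05. Members with the smallest p were Col9a2, with a difference of log2 fold changes of −0.46 (SE 0.134, adjusted p = 0.057), Col4a4 with −0.57 (adjusted p = 0.17), Col9a3 with −0.24 (adjusted p = 0.22), Nid2 with −0.50 (adjusted p = 0.23) and Col11a2 with −0.28 (adjusted p = 0.25). Col9a2 had medians of 16.6 TPM in monomer and 19.6 TPM in PFF mice at 21% O2, and 18.3 and 17.3 TPM in monomer and PFF mice at 11% O2. The log2 fold change with 11% O2 was 0.20 in monomer mice but −0.25 in PFF mice. The 4 groups overlapped. For Fn1 the difference was −0.16 (95% interval −0.79 to 0.46) and for Col7a1 it was 0.07 (95% interval −0.36 to 0.50), so that sizeable differences in either direction were within the error.

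**Figure D4:**
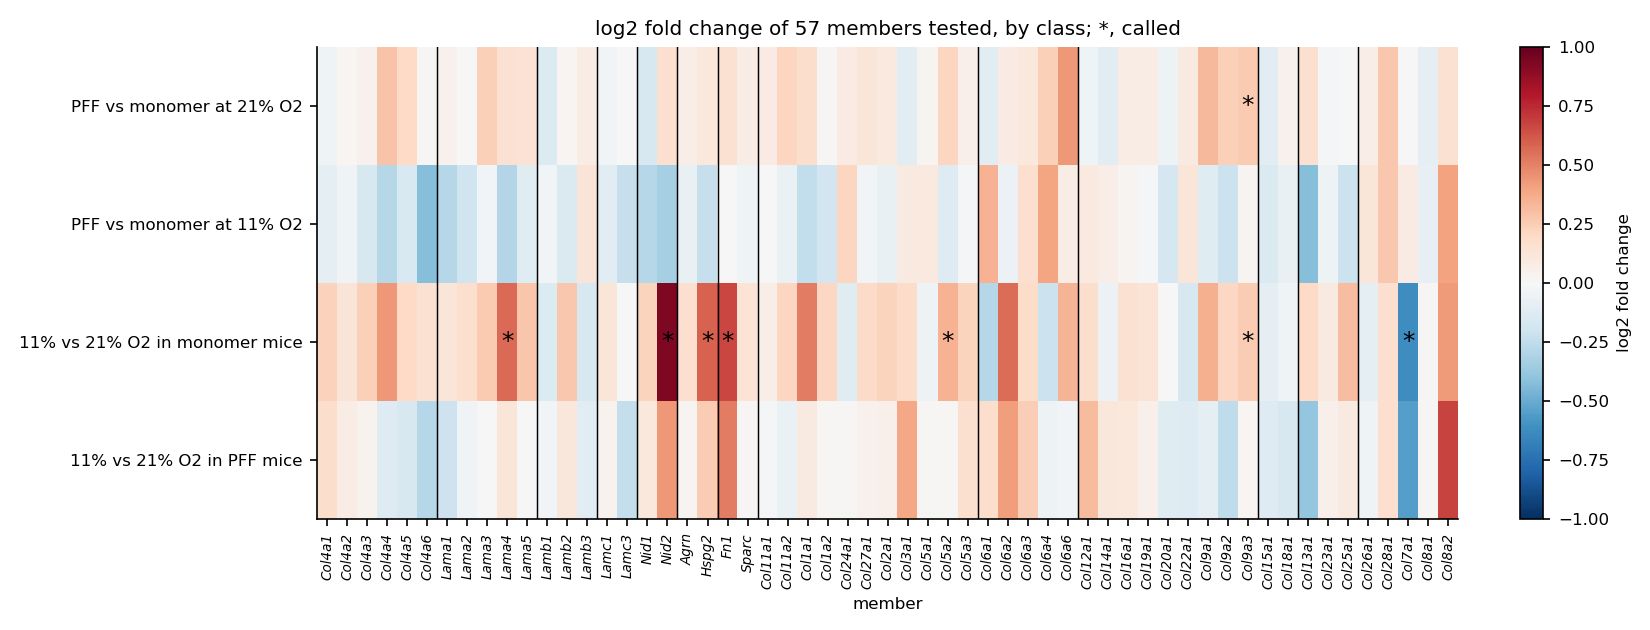
log2 fold change (colour scale, −1 to 1) of 57 of the 58 members tested, grouped by class, in the 4 comparisons. Stars mark the calls, 7 in the comparison of O2 levels in monomer mice and 1 between PFF and monomer mice at 21% O2.

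Enzymes that modify, fold and crosslink collagen were examined as a list of their own. The α subunits of prolyl 4-hydroxylase, P4ha1 and P4ha2, make the hydroxyproline that stabilises the collagen helix. P4ha1 ran from 58.9 to 103 TPM with a median of 86.0 in monomer mice at 21% O2, and from 38.9 to 73.6 TPM with a median of 49.3 in PFF mice at 21% O2. It was at medians of 60.3 TPM (54.0 to 70.9) and 60.8 TPM (54.3 to 67.7) in monomer and PFF mice at 11% O2. Monomer mice at 21% O2 had the highest median, and 10 of 12 PFF mice at 21% O2 lay below all of them. The log2 fold change was −0.69 (adjusted p = 6.6e-07, SE 0.0857) with PFF at 21% O2 and −0.44 (SE 0.0923, adjusted p = 0.0011) with 11% O2 in monomer mice, and the difference of O2 responses was 0.70 (SE 0.128, adjusted p = 0.0019). P4ha2 gave −0.44 (adjusted p = 1.0e-04), −0.52 (adjusted p = 9.9e-06) and 0.52 (adjusted p = 0.0049) in the same order. These comparisons share the monomer mice at 21% O2, so their results are not independent. The same holds for Pxdn, Itga10, Adamts1 and Reck below.

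Of the 27 enzyme genes tested, 4 were lower with PFF at 21% O2 and 0 higher, where 1.41% and 2.29% of all genes were. Beside P4ha1 and P4ha2 these were Pxdn, whose product crosslinks collagen IV, at −0.31 (adjusted p = 0.0044), and Serpinh1, the collagen chaperone HSP47, at −0.36 (adjusted p = 0.045). All 4 were called in batch 2 and none in batch 1, with P4ha1 at −0.94 and −0.14, P4ha2 at −0.54 and −0.24, Pxdn at −0.46 and 0.03, and Serpinh1 at −0.60 and 0.14. Whether the batches differed was not tested. With 11% O2 in monomer mice, 3 were higher and 3 lower, where 4.68% and 2.55% of all genes were. Loxl1, a lysyl oxidase that crosslinks elastin and collagen, was at 0.59 (adjusted p = 0.0034), Pcolce2, an enhancer of procollagen trimming, at 0.32 (adjusted p = 0.0010) and Pxdn at −0.29 (adjusted p = 0.0069). With 11% O2 in monomer mice, Pxdn kept its call in 9 of 12 other fits. P4ha1, P4ha2 and Pcolce2 kept theirs in 11 and Loxl1 in 12. In PFF mice with 11% O2, 1 was called, Loxl1 at 0.68 (adjusted p = 0.0040), and 8 of 10 mice at 11% O2 were above every mouse at 21% O2. Between PFF and monomer mice at 11% O2, 0 of the 27 were called.

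Of 19 receptor genes tested, 5 were higher and 1 lower with 11% O2 in monomer mice, beside 4.68% and 2.55% of all genes. Ddr1, a collagen receptor kinase of oligodendrocytes and epithelia, ran from 115 to 153 TPM (median 136) at 21% O2 and from 135 to 212.8 TPM (median 198) at 11% O2, with 7 of 9 mice above all at 21% O2. Its log2 fold change was 0.44 (adjusted p = 4.0e-04), beside 0.42 (adjusted p = 0.0090) for Itga1, a collagen-binding integrin chain, 0.26 (adjusted p = 0.0093) for Itga7 and 0.34 (adjusted p = 0.023) for Itgb4, both laminin-binding. Of 5 oligodendrocyte markers, Mog alone was called higher there, at 0.32 (adjusted p = 4.0e-04), with Mag at 0.23 (adjusted p = 0.023) and a median of 0.11, and their part in the rise of Ddr1 was not tested. Itga10, another collagen-binding chain, was lower with 11% O2 in monomer mice at −0.50 (adjusted p = 0.0034) and with PFF at 21% O2 at −0.52 (adjusted p = 0.0024), the latter being −0.12 in batch 1 and −0.75 in batch 2. With 11% O2 in monomer mice, Ddr1 kept its call in 12 of 12 other fits and Itga10 in 10. Itga1 kept it in 9, Itgb4 in 8 and Itga7 in 6. Of 22 protease and inhibitor genes tested, 3 were higher and 0 lower with 11% O2 in monomer mice, beside the same shares of all genes. Adamts1, a protease of proteoglycans, ran from 9.82 to 18.5 TPM (median 13.7) at 21% O2 and from 18.8 to 29.8 TPM (median 25.1) at 11% O2, groups that did not overlap, for a log2 fold change of 0.75 (adjusted p = 5.0e-06). Reck, a membrane inhibitor of matrix metalloproteases, was at 0.64 (adjusted p = 1.1e-06), and Mmp14, a membrane-bound metalloprotease, at 0.49 (adjusted p = 0.0014). Mmp14 also rose with 11% O2 in PFF mice, by 0.56 (adjusted p = 0.0012), and the O2 response of Reck was lower in PFF mice by a difference of −0.53 (adjusted p = 0.0078). With PFF at 21% O2, 2 of the 22 were higher, where 2.29% of all genes were, and 0 lower. Reck was at 0.33 (adjusted p = 0.0069), with 0.10 in batch 1 and 0.57 in batch 2, and Adamts1 at 0.37 (adjusted p = 0.020), with −0.052 in batch 1 and 0.57 in batch 2.

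Most endothelial and pericyte markers were higher with 11% O2 in monomer mice. In bulk tissue, more cells of a type and more RNA per cell cannot be told apart. The marker calls were not followed through the other fits, and monomer mice at the 2 O2 levels shared batch 1 alone. Over all genes, 4.68% were called higher with 11% O2 in monomer mice, and 0.58% were called in either direction in PFF mice. Of 11 endothelial markers, 10 were called higher with 11% O2 in monomer mice, their median log2 fold change being 0.51, and 2 were in PFF mice. Their summed level ran from 275 to 366 TPM in monomer and 237 to 400 TPM in PFF mice at 21% O2, and from 357 to 641 TPM in monomer and 367 to 487 TPM in PFF mice at 11% O2. Of 9 pericyte markers, 7 were higher in monomer mice, with a median of 0.52, and 3 in PFF mice, and the sums were 231 to 354, 209 to 448, 304 to 646 and 299 to 402 TPM in the same order. All 5 red cell genes were higher in monomer mice, with a median of 1.32, and the sums were 514 to 1404, 383 to 2409, 1058 to 5795 and 1104 to 4972 TPM. Of 9 leptomeningeal fibroblast markers 0 were called, with a median of 0.36, and sums of 20.8 to 181.8, 18.4 to 235, 35.5 to 267 and 40.1 to 119 TPM. Smooth muscle markers had 1 of 3 tested called, and choroid plexus markers 0 of 7 tested. Of 5 astrocyte, 6 microglia and 3 oligodendrocyte precursor markers 0 were called with 11% O2 in monomer mice. None of these 6 vessel, blood, meningeal and choroid plexus lists had a gene at 0 in every mouse. The part of cell composition in the rise of the members was not tested, and their median of 0.18 was below those of the endothelial and pericyte lists.

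Across mice of 1 group and batch, matrix genes varied along with vessel and meningeal markers. The mean log2(TPM + 1) of Col1a1, Col1a2 and Col3a1, and of 7 basement membrane genes (Col4a1, Col4a2, Lama4, Lamb1, Lamc1, Nid1 and Hspg2), was centred on the mean of its group and batch and set against 3 marker lists, which gave 6 relations over 42 mice. The marker lists hold no member and share no gene. Over the 6 relations Pearson's r ran from 0.63 to 0.79 and Spearman's rho from 0.61 to 0.76, with adjusted p of the two-sided permutation test from 6.0e-05 to 0.00063 for r and from 9.0e-05 to 0.00067 for rho. The interstitial collagens followed the pericyte list at r = 0.79 and the fibroblast list at r = 0.76. The basement membrane genes followed the fibroblast list at r = 0.71 and the endothelial list at r = 0.63. Without the 2 mice farthest from the median of the markers, r was 0.55 to 0.73. By batch, r ran from 0.21 to 0.75 in batch 1, from 0.70 to 0.88 in batch 2 and from 0.68 to 0.83 in batch 3, and in batch 1 the basement membrane genes were at 0.21 with the endothelial and 0.24 with the pericyte list. On the values before batch correction r was 0.54 to 0.75.

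**Figure D5:**
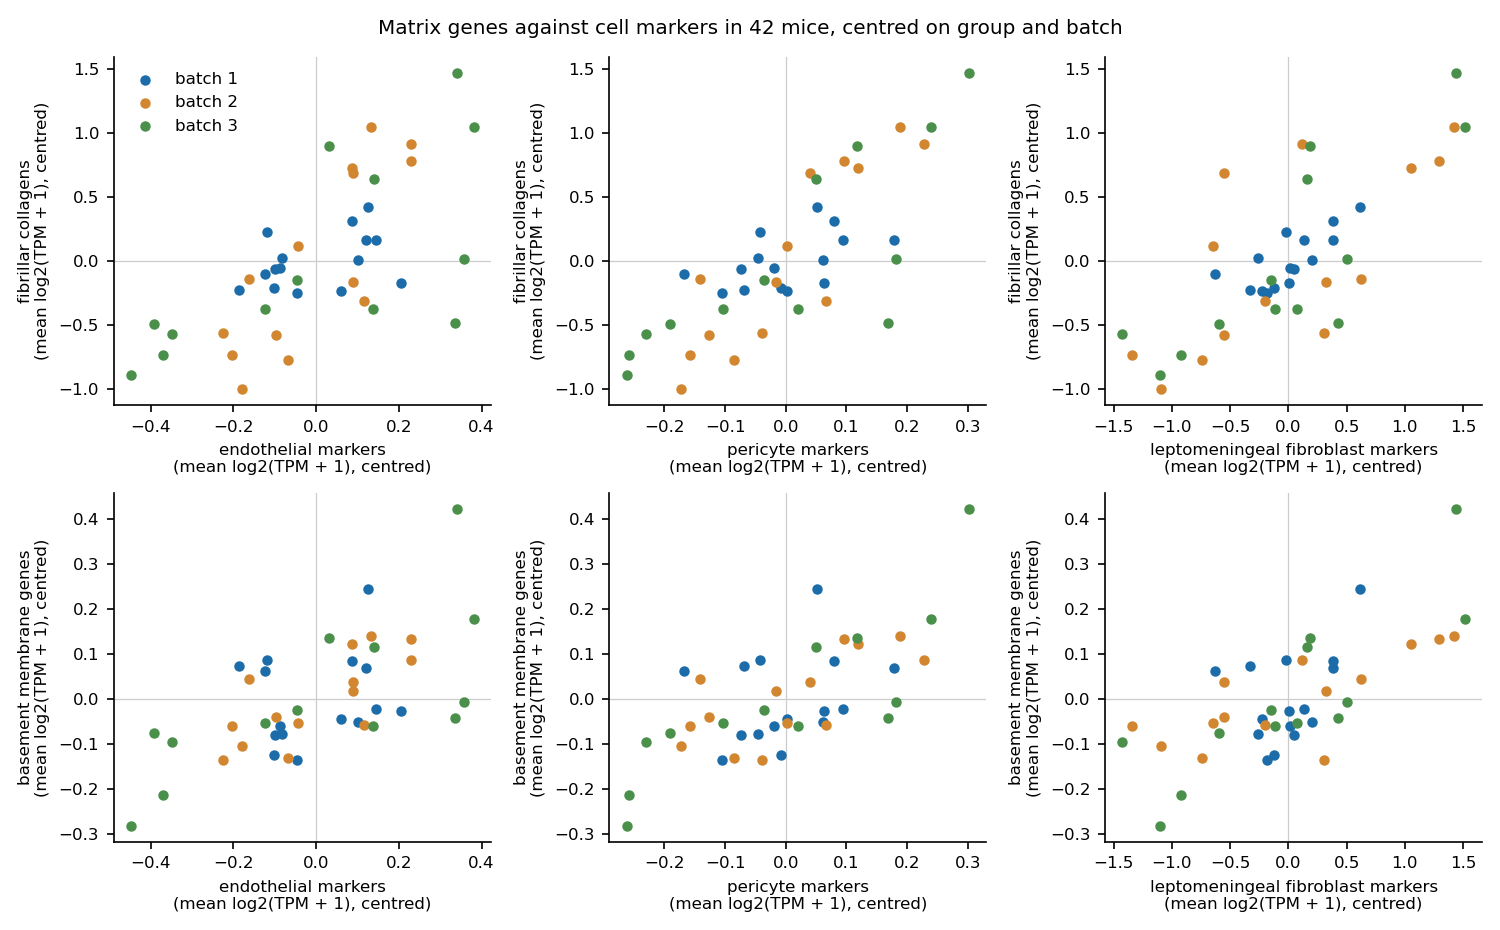
Mean log2(TPM + 1) of 3 interstitial collagens (top) and of 7 basement membrane genes (bottom) against that of endothelial, pericyte and leptomeningeal fibroblast markers, each centred on group and batch. Each point is 1 of 42 mice, coloured by batch, and all 6 panels slope upward, with r from 0.63 to 0.79.

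Over the same centred values, the members most like Col4a1 in their variation between mice were Col4a2 (r = 0.75), Agrn (r = 0.62) and Col5a1 (r = 0.51). This is a ranking of genes measured in the same 42 libraries and is given without a test.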

How the data were processed

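Poly(A) RNA of the SN was sequenced in 48 mice, 12 a group. Reads that matched ribosomal DNA were discarded by the authors, who aligned the others with STAR 2.7.5a to mm10 with GENCODE vM24 genes, removed duplicate reads with Picard 2.21.9, and counted primary alignments per gene, multi-mapping reads included, with featureCounts 2.0.1 and no strand option named. They left out 6 mice as outliers of a principal components analysis, adjusted the counts of the remaining 42 for batch with ComBat-seq and deposited these integer counts for 19601 protein-coding genes. The deposited TPM values were derived by the authors from those corrected counts, and a second pair of tables holds counts and TPM of all 48 mice and 55385 genes before correction. ComBat-seq was given the groups, which can narrow the spread within groups and make p-values too small.

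The corrected counts were tested in edgeR 4.0.16 under R 4.3.3, with TMM normalization, filterByExpr by group and the quasi-likelihood test in 1 fit of the 4 groups. Adjusted p are Benjamini-Hochberg values over all 14839 genes tested, and intervals are 95%. The 5 comparisons were PFF against monomer at each O2 level, 11% against 21% O2 in each injection group, and the interaction. Fold changes quoted without a scale are log2. DESeq2 1.42.0 and limma 3.58.1 served as alternatives. On simulated counts with known 1.5-fold changes, 172 of 199 changed genes (86.4%) were recovered for PFF against monomer at 21% O2 among 14794 genes and 174 of 199 (87.4%) for 11% against 21% O2 in monomer mice among 14799, with 2 unchanged genes called in each. The simulated counts used the spread estimated from the corrected counts and held no batch effect, and the changed genes were picked at random. They therefore do not give the recovery or the false calls to be had for the members in these batches. Each library is 1 mouse, and counts carry counting error beside the spread between mice.

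Members and gene lists were chosen with earlier results of these data known. Genes are named where they are members called in any comparison, one of 18 vessel and matrix genes picked by name, the 5 members of smallest interaction p, the 5 of highest mean TPM, members that failed the filter, up to 5 called genes per pathway list and comparison by p, or the 3 members most like Col4a1. Members that hold a motif or lack a promoter were named after their values were seen. The values of 1 member are not reported here. Alternatives were other normalization, filters, tools, batch handling, a replicate block and pseudocounts of 1 and 0.1. Fits without 1 of 3 mice were added after the data had been seen. Gene positions are from GENCODE vM21 on GRCm38, where 56 of 61 member IDs have the same version, and promoters from RefSeq on GRCm38.p6.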

Additional observations from a re-analysis of the deposited data

Results flagged for a closer look

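A mouse was flagged by its gap to the next mouse, at a cutoff that gives about 1 in 20 for independent, normally distributed values. TPM of related genes in the same mice need not be such values. In 10 of 54 tests of the 27 named members in groups of 9 or 10 mice, 1 mouse stood far from the rest. Of these, 5 were the same mouse, monomer mouse 11 at 11% O2, which was highest in Col1a1 (18.3 TPM, next 11.35), Col1a2 (15.6, next 8.38), Col5a1 (3.03, next 2.07), Lama4 (4.88, next 2.99) and Nid1 (16.9, next 11.9). Among PFF mice at 11% O2, mouse 8 was high in Fn1 (35.4 TPM, next 12.6). In the same group mouse 12 was high in Col11a2 (61.95 TPM, next 53.5) and Col5a1 (3.19, next 2.20). Mouse 3 of that group was low in Col4a1 (15.1 TPM, next 18.2) and mouse 6 low in Lama4 (0.983 TPM, next 1.81).

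The response to 11% O2 differed between PFF and monomer mice for 3 genes of the pathway lists by the interaction test of edgeR. The difference of log2 fold changes was 0.70 for P4ha1 (adjusted p = 0.0019), 0.52 for P4ha2 (adjusted p = 0.0049) and −0.53 for Reck (adjusted p = 0.0078). Within batch 1 it was 0.21 (adjusted p = 0.71), 0.35 (adjusted p = 0.60) and −0.24 (adjusted p = 0.61).

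The 6 mice left out by the authors entered no comparison of the corrected counts. These values are from before the correction, so batch and mouse are mixed in them. The same counts over all genes were not made, so the numbers below cannot be read as particular to the members. The number of the 61 members above every analysed monomer mouse at 21% O2 was 43, 35 and 22 in monomer mice 12, 8 and 9 at 11% O2, 47 and 19 in PFF mice 5 and 2 at 11% O2, and 28 in monomer mouse 10 at 21% O2. Above all 42 analysed mice there were 30, 16 and 4, then 39 and 14, then 10 members, in the same order. Against the 13 to 15 analysed mice of the same batch alone they were 36, 20 and 6, then 42 and 18, then 24. No monomer mouse at 21% O2 was in batch 3, which held mice 8, 9 and 12, and the 5 analysed monomer mice at 11% O2 of that batch had 4 to 38 members above every monomer mouse at 21% O2, a range that holds mice 8 and 9. Nid2 was at 8.80, 7.54 and 4.33 TPM in those 3 monomer mice at 11% O2 and at 11.5 TPM in PFF mouse 5. PFF mouse 2 held 3134594 counts, fewer than any other library.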

How the results depend on the processing

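Of the 8 called values of members, 97 refits gave 50 calls, 47 losses and no change of sign. Of 25 uncalled values, 303 refits gained 6 calls and changed 12 signs. With PFF at 21% O2 the count fell from 1 to 0 with a batch term over 42 or 48 uncorrected mice, in batch 1 alone, with limma on log2(TPM + 1), log2(TPM + 0.1) or mean TPM of at least 1, and without PFF mouse 6, where Col9a3 fell just under the fold required. It was 2 (Col9a2 and Col9a3) in batch 2 alone. With 11% O2 in monomer mice, 7 became 3 with the batch term over 42 mice, 0 in batch 1 alone, 2, 3 and 2 with these limma fits, and 3 without monomer mouse 11. In PFF mice 0 became 1 (Col7a1) with DESeq2 and with only the groups compared in the fit, and in the interaction 0 became 1 (Col9a2) with DESeq2. With PFF at 21% O2 in batch 1 alone, Adamts1 (−0.052), Pxdn (0.028) and Serpinh1 (0.14) had the other sign and were not called. Of 316 refits of 25 pathway values, another 46 lost the call. The cause was not tested. Over all genes, batch 1 alone gave 9 calls with PFF at 21% O2 (549 over all mice), 297 with 11% O2 in monomer mice (1073), 6 in PFF mice (86) and 11 in the interaction (318). With 11% O2 in PFF mice batches 2 and 3 alone gave 7 and 2. The batch term over 42 mice gave 657 with 11% O2 in monomer mice and fewer in the interaction as well, where that over 48 mice gave 152. For PFF against monomer at 11% O2, 0 became 1 with DESeq2 and without monomer mouse 11. In batch 1 alone r was 0.39 and 0.51 for interstitial collagens with endothelial and pericyte markers, and 0.21, 0.24 and 0.43 for basement membrane genes with endothelial, pericyte and fibroblast markers. Mice of the same replicate number in different groups showed little shared deviation (54 pairs, median r 0.0033, 21 above 0.1). Pairs of different number had a slightly lower median r. The paper describes a randomized design of matched pairs. A low median r over all genes cannot decide whether the replicate number marks such pairs. With the replicate number as a block, 0 members were called with PFF at 21% O2 and 8 with 11% O2 in monomer mice. With 9 to 12 mice a group, shifts near the SE of interstitial collagens could not be detected, and the batches of monomer mice at 11% and 21% O2 met in 8 mice only.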
